A study of Mus musculus with 16 samples.

Results

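The liver makes most of the proteins that circulate in blood plasma for innate defence, clotting and the response to injury. The genes described here are 42 mouse genes for such proteins, taken by their gene symbols from the tag count table of 20826 symbols. They comprise 14 complement genes, 17 coagulation genes and 11 acute-phase genes. Counts of all transcripts with the same symbol were added together. All 42 had at least 1 tag, and 22 had enough tags to be tested among the 1046 genes that passed the expression filter.

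The tags came from the livers of 16 male C57BL/6J mice, 4 per feeding group, by SuperSAGE, which sequences and counts a short tag that follows an NlaIII cut in the captured cDNA. HFW mice ate a high-fat diet with 1% of WEPAK, the water-soluble part extracted from Pacific krill, and HF mice ate the high-fat diet alone. NW mice ate a normal diet with 1% of WEPAK, and N mice ate the normal diet alone. The labels give the fat content for the diets without the extract only, as 45% in HF and 10% in N. Feeding lasted 18 weeks and started at an age of 4 weeks in every group, and the labels name no altered gene or drug. Each library came from 1 mouse, named here by its number: 34, 36, 38 and 40 in HFW, 23, 25, 28 and 29 in HF, 11, 12, 15 and 20 in NW, and 4, 5, 7 and 8 in N. Values per mouse are given in that order.

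The libraries held 56655 to 149349 tags in named genes, so that 1 tag stood for 6.7 to 17.7 CPM. Levels are in CPM, tags scaled by the normalized size of their library. A transcript gives 1 tag whatever its length, so levels were not divided by length. The markers of hepatocytes, the cells that make these proteins, all had tags and summed to 59160 to 88830 CPM in HFW, 61160 to 75020 in HF, 93660 to 118400 in NW and 69280 to 94080 in N. The liver label and the abundant markers thus go together, and the lowest NW sum lay above every HFW and HF sum and just below the highest N sum. Most of each sum was Apoa2, with group means of 63210 in HFW, 50600 in HF, 75550 in NW and 56650 in N. Ahsg did not follow it, with 2955, 2986, 3034 and 2392. Of the 10 markers 7 passed the expression filter. Apoa1, with 57.1, 40.7, 93.6 and 23.8, and Asgr1, with 29.4, 7.13, 19.8 and 18.0, were near the floor and did not pass it. None of the 7 tested markers passed in NW against N or in HFW against NW. In whole liver, fewer cells of a type and less RNA per cell cannot be told apart.

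Complement is a cascade of plasma proteases and binding proteins that ends in a pore in the target membrane. Its lectin arm is started by MASP proteases, and factor I with its cofactors shuts it down. Coagulation turns prothrombin into thrombin, which turns fibrinogen into fibrin, while antithrombin inhibits thrombin and plasmin dissolves the clot. Acute-phase proteins are those whose plasma level changes in inflammation, largely through cytokine signals to the hepatocyte. In mice the serum amyloid A proteins, haptoglobin and hemopexin are among those that increase.

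The tags expected of the genes on which the results turn are shown here because they decide which genes and which transcripts SuperSAGE can tell apart. Each is read from the last NlaIII site of a GENCODE transcript of the gene (build GRCm38), cut where the RefSeq gene ends, up to 26 bases, and the capitals mark the NlaIII site itself.
Itih3: CATGtaaaccaaaa
Itih1: CATGgcctctgaatcccttgaataaa
Itih4: CATGttgtcctcgtacgcaggcagat
Serpinc1: CATGgggagagtggctaatccttgtg
Masp2: CATGacaataataaacctgcctccgt
Saa1: CATGtgtgtatcccacaagggtttca
Saa2: CATGtgtgtatcccacaagggtttca

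The Itih3 site lies in the 3′ UTR only 14 bases before the transcript's end (chr14:30908572-30908585, minus strand), so a tag from this site would run into the poly(A) tail. Extended with A, it was the last tag of no other gene, but other transcripts were not searched for it, and which site gave the Itih3 tags is not known. Itih1 (chr14:30929194-30929219, minus strand) and Itih4 (chr14:30901730-30901755, plus strand) are its neighbours on the chromosome and have full tags in their 3′ UTRs that occur in no other gene. The Serpinc1 tag lies in the coding sequence (chr1:161002430-161002455, plus strand). The Masp2 tag (chr4:148604389-148604414, plus strand) is the end of a short transcript of 738 bases and lies in an intron of the full transcript of 3058 bases. All 3332 Masp2 tags stood in the table row of the short transcript and 0 in that of the long one. As background, the short transcript of this gene encodes sMAP, a truncated product without the protease domain, so the Masp2 values below are those of the short form.

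Saa1 (chr7:46740567-46740592, minus strand) and Saa2 (chr7:46754218-46754243, plus strand) have the same last tag, and 4 of the 7 NlaIII sites of each gene are followed by the same 26 bases. The table nevertheless gives them different counts, and how it divided shared tags is not given in the sources used here, so their separate values are uncertain. The same holds for C4b with C4a, Orm1 with Orm2, Kng1 with Kng2, and Cfb with Gm20547. Hpx is a further uncertain case and a weaker one than Itih3, since its last site stands 4 bases before the end of its transcript. Extended with A, the Hpx tag was also the last tag of 928 other genes, and which site gave the Hpx tags is not known.

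The counts of tags differed by orders of magnitude among these genes for secreted liver proteins. Masp2 held 51.8% of the complement tags, Serpinc1 34.3% of the coagulation tags and Hpx 37.7% of the acute-phase tags. At the low end, C9, a subunit of the complement pore, had 1 tag in all libraries, and C3, the central component of complement, had 19 tags in 11 of the 16 libraries. A low count need not mean a low transcript level, since how tags were matched is not known. Whether low counts here reflect expression or the recovery and matching of tags was not tested. The tested members had a median level of 331.6 CPM, against 250 CPM over all tested genes.

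**Figure D1:**
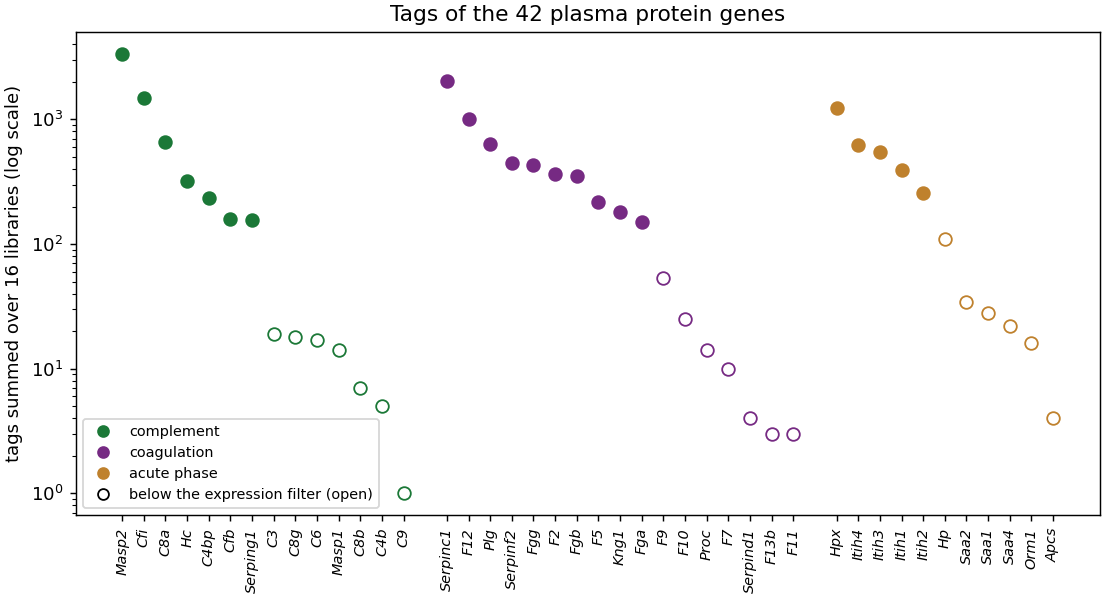
Tags of each of the 42 genes summed over 16 libraries, on a log scale, by group of genes. Filled points passed the expression filter and open points did not; Masp2 (3332 tags) stands at the top and C9 (1 tag) at the bottom.

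The first question was what the krill extract changed, taken as the mean of its effects on both diets. Itih3 was higher and Serpinc1 was lower with the extract, and the other 20 tested members did not pass. The 2 calls are 9.09% of the 22 tested members, against 31.3% of all 1046 tested genes. By direction, 1 member (4.55%) was higher against 15.2% of all genes, and 1 member (4.55%) was lower against 16.1%. At an unadjusted p below 0.05 there were 5 members (22.7%), namely Cfi, F12, Itih1, Itih3 and Serpinc1, against 42.4% of all genes. The median log2 fold change was 0.02 over the tested members, with 12 positive and 10 negative, and 0.03 over all genes, and the median size of the change was 0.30 in members and 0.41 in all genes. The median standard error was 0.22 in members and 0.25 in all genes.

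Taken diet by diet, none of the members passed. In HFW against HF, 0 of 22 members passed, where 9.85% of all genes did, and in NW against N again 0 of 22, where 11% of all genes did (edgeR quasi-likelihood test). At an unadjusted p below 0.05 there were 3 members (13.6%) in HFW against HF (Hpx, Itih3 and Serpinf2), against 28.6% of all genes. In NW against N there were 5 (22.7%; Cfi, F12, Itih1, Itih3 and Serpinc1), against 28.5% of all genes. With the DESeq2 Wald test and with limma-voom the counts in both contrasts were also 0. The 4 mice of each group did not overlap for 1 member, Itih3, in HFW against HF, where 15.7% of all genes did not overlap. In NW against N they did not overlap for 2 members, Serpinc1 and Itih1, with 15.5% over all genes.

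**Figure D2:**
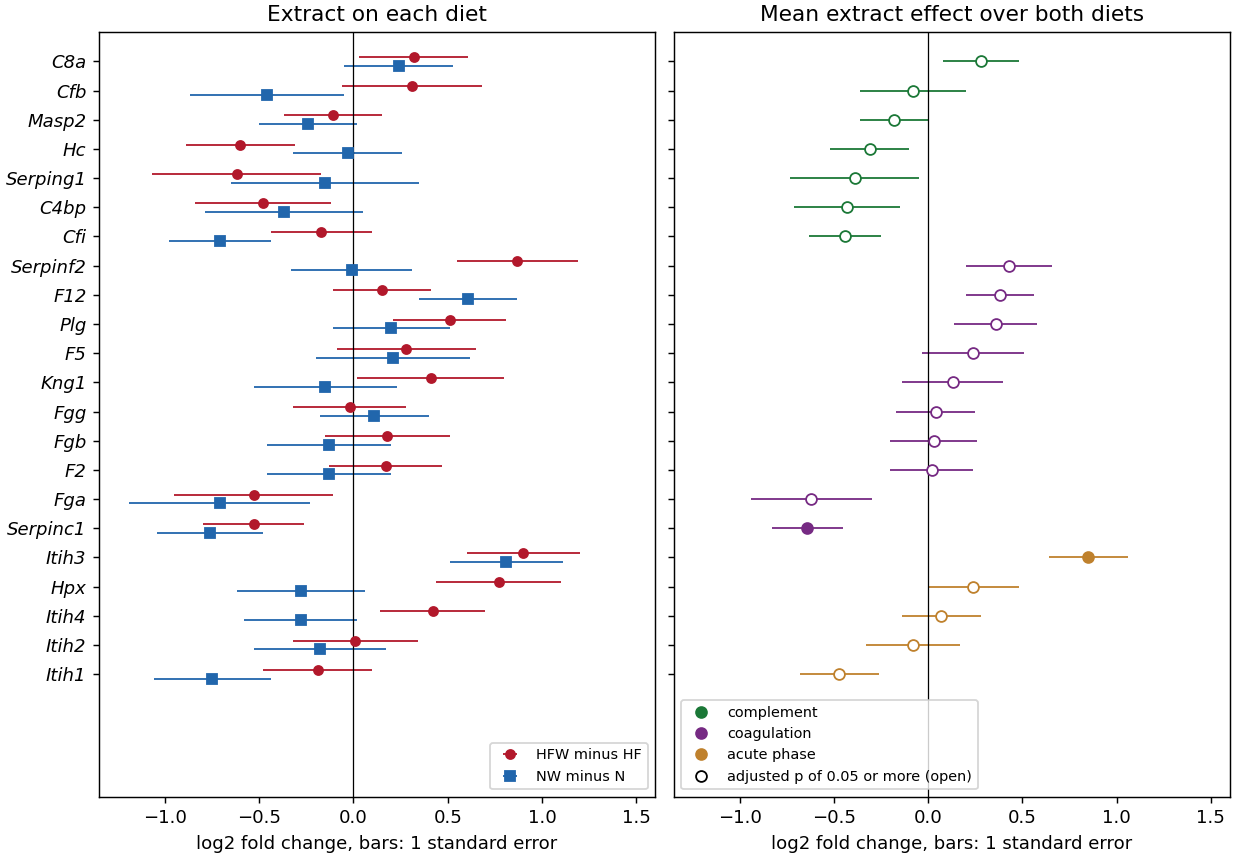
Log2 fold changes of the 22 tested genes with 1 standard error, on each diet (left, HFW minus HF as circles and NW minus N as squares) and as the mean over both diets (right). The filled points on the right are Itih3 (0.85) and Serpinc1 (-0.64), and the open points did not pass at an adjusted p of 0.05.

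Among the acute-phase genes, the inter-alpha-trypsin inhibitor heavy chains are plasma proteins that are passed on to hyaluronan in the extracellular matrix. Itih3 encodes the heavy chain that joins bikunin to form pre-alpha-inhibitor. It had 668, 513, 442 and 467 CPM in HFW mice, against 309, 254, 249.7 and 316 in HF mice. In NW mice it had 847, 739, 698 and 471, against 168, 345, 523 and 544 in N mice. Every HFW mouse was above every HF mouse, while NW mouse 20 was below N mice 7 and 8. Itih3 had a log2 fold change of 0.90 (SE 0.30, adjusted p = 0.0528) in HFW against HF and of 0.81 (SE 0.30, adjusted p = 0.0701) in NW against N, and neither passed by edgeR. Their mean was 0.85 (SE 0.21, adjusted p = 0.0032 by edgeR), with 8 of 8 mice on WEPAK above the mean of their diet's mice without it. This call held in 25 of 25 alternatives, with adjusted p between 0.000936 and 0.0495.

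Itih1 encodes a heavy chain of inter-alpha-inhibitor. Its level was 184, 257, 336 and 436 CPM in HFW mice, against 321, 381, 352 and 335 in HF mice. NW mice had 193, 211, 254 and 216, against 420.1, 355, 254 and 450.3 in N mice. The HFW mice spread to both sides of the HF mice, and the NW mice all lay below the N mice, though NW mouse 15 (253.8) and N mouse 7 (254.1) were almost level. In log2 fold changes Itih1 had -0.19 (SE 0.29) in HFW against HF, -0.75 (SE 0.31) in NW against N and -0.47 (SE 0.21, adjusted p = 0.0902 by edgeR) on average, which did not pass. Without HFW mouse 40 the average passed (-0.59, adjusted p = 0.0438 by edgeR).

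Itih4, a heavy chain that does not bind bikunin and is cut by plasma kallikrein, had 891, 336, 694 and 627 CPM in HFW mice, against 440, 473, 435 and 574 in HF mice. Its NW values were 231, 384, 508 and 491, against 605, 431, 508 and 413 in N mice. Groups overlapped on both diets. Itih4 had a log2 fold change of 0.42 (SE 0.28) in HFW against HF and -0.28 (SE 0.30) in NW against N. Itih2, the other heavy chain of inter-alpha-inhibitor, averaged 189.7 ± 66.8 CPM in HFW, 197 ± 61.4 in HF, 211 ± 88.8 in NW and 238 ± 28.5 in N (SD, n = 4 each), with log2 fold changes of 0.01 (SE 0.33) in HFW against HF and -0.18 (SE 0.35) in NW against N. The 4 heavy chain genes thus had mean extract effects of 0.85, -0.47, 0.07 and -0.08 for Itih3, Itih1, Itih4 and Itih2, of which that of Itih3 passed.

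Hpx encodes hemopexin, which binds free heme. It had 2451, 1283, 1787 and 669 CPM in HFW mice, against 773, 544, 1323 and 986 in HF mice. In NW mice the values were 924, 893, 613 and 569, against 605, 689, 1166 and 1238 in N mice. HFW mouse 34 was the highest of all 16 and HFW mouse 40 lay below 3 of the 4 HF mice, so the groups overlapped. The log2 fold change was 0.77 (SE 0.33, adjusted p = 0.125 by edgeR) in HFW against HF and -0.28 (SE 0.34) in NW against N. The difference between these, tested as the interaction of extract and diet, was 1.05 (SE 0.48, adjusted p = 0.997 by edgeR). In HFW against NW, the diets compared within the extract, Hpx had 1.03 (SE 0.34, adjusted p = 0.225 by edgeR). Without HFW mouse 40 Hpx passed in HFW against HF (1.00, adjusted p = 0.0459 by edgeR).

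**Figure D3:**
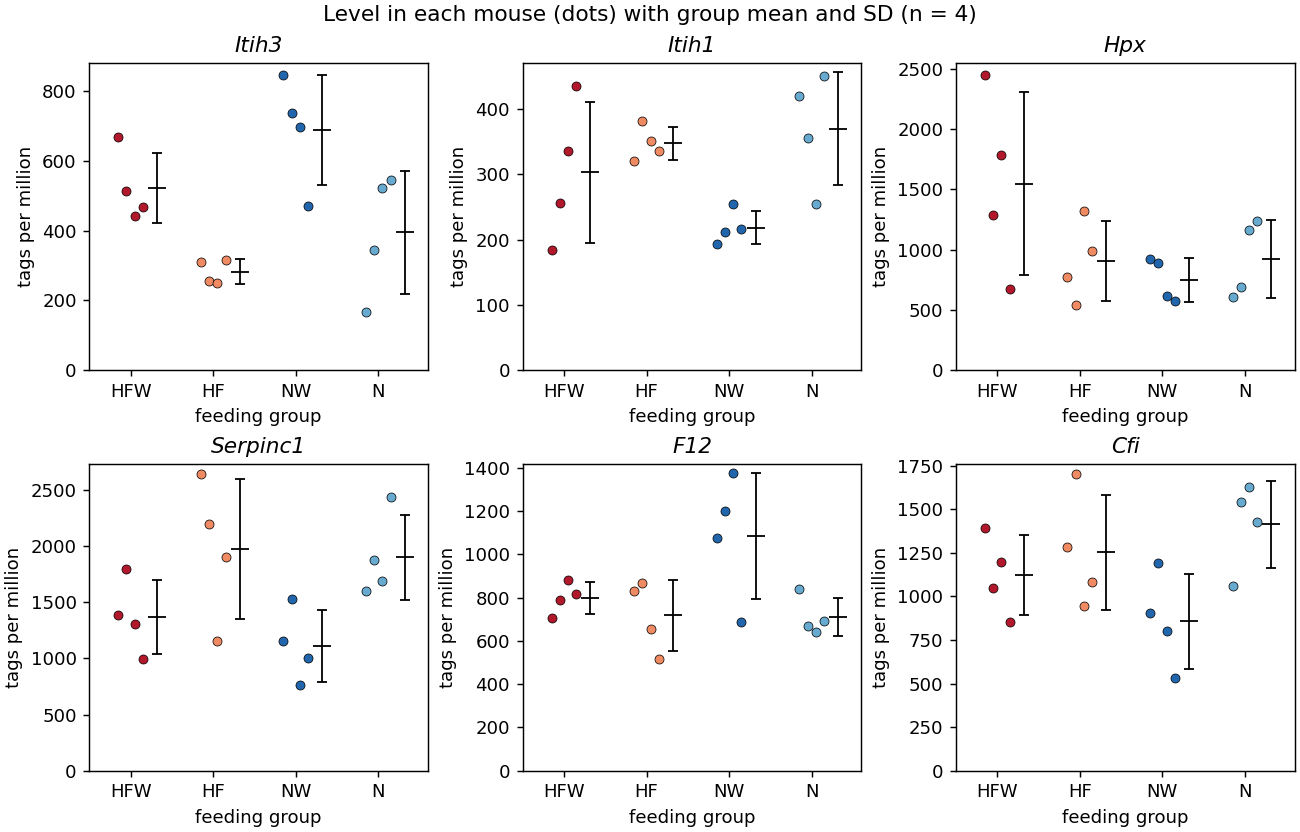
Levels in CPM of 6 genes in each mouse (dots), with the group mean and SD beside them (n = 4). For Itih3 every HFW mouse lies above every HF mouse, for Serpinc1 and Itih1 every NW mouse lies below every N mouse, and for Hpx HFW mouse 34 (2451) is the highest.

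Among the coagulation genes, Serpinc1 encodes antithrombin, the main plasma inhibitor of thrombin and factor Xa. It had 1389, 1796, 1304 and 999 CPM in HFW mice, against 2640, 2197, 1156 and 1905 in HF mice. In NW mice it had 1155, 1526, 761 and 1001, against 1596, 1874, 1689 and 2439 in N mice. All NW mice were below all N mice, and on the high-fat diet HF mouse 28 lay within the HFW range. Serpinc1 had a log2 fold change of -0.53 (SE 0.27, adjusted p = 0.199) in HFW against HF and -0.76 (SE 0.28, adjusted p = 0.0669) in NW against N, and neither passed by edgeR. Their mean was -0.64 (SE 0.19, adjusted p = 0.0126 by edgeR), with 8 of 8 mice on WEPAK below the mean of their diet's mice without it. The call held in 25 of 25 alternatives, with adjusted p between 0.0048 and 0.0447.

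F12 encodes factor XII, the protease that starts contact activation. HFW mice had 708, 789.5, 883 and 818 CPM, against 832, 869, 657 and 517 in HF mice. NW mice had 1078, 1200.0, 1375 and 687, against 840.1, 668, 643 and 694 in N mice. Of the NW mice 3 stood above every N mouse, and NW mouse 20 lay within the N range. In log2 fold changes F12 had 0.15 (SE 0.26) in HFW against HF, 0.61 (SE 0.26) in NW against N and 0.38 (SE 0.18, adjusted p = 0.107 by edgeR) on average. Without NW mouse 20 F12 passed in NW against N (0.84, adjusted p = 0.0488 by edgeR) and on average (0.49, adjusted p = 0.0472).

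The fibrinogen genes Fga, Fgb and Fgg encode the chains of the clot's building block and lie together on chromosome 3. Fga had 105, 98.7, 84.1 and 128 CPM in HFW mice, against 274, 141, 111 and 105 in HF mice. NW mice had 38.5, 67.2, 148 and 78.5, against 185, 96.9, 74.8 and 188 in N mice. These values rest on 2 to 23 tags a library, and the groups overlapped. Fga had a mean extract effect of -0.62 (SE 0.32, adjusted p = 0.139 by edgeR), against 0.03 (SE 0.23) for Fgb and 0.04 (SE 0.21) for Fgg. All 150 Fga tags stood in the row of the transcript of 2587 bases and 0 in that of 2083 bases, so for this gene too the table follows 1 form. The comparison of Fga with Fgb and Fgg holds for that form only. Fgb averaged 263 ± 87.2 CPM in HFW, 238 ± 96.1 in HF, 308 ± 25.2 in NW and 337 ± 94.1 in N (SD, n = 4 each). Fgg averaged 285 ± 86.8 CPM in HFW, 297 ± 51.3 in HF, 431 ± 55.6 in NW and 400.4 ± 133 in N. On the high-fat diet the extract contrasts of Fga, Fgb and Fgg were -0.53, 0.18 and -0.02, and on the normal diet they were -0.71, -0.13 and 0.11.

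Plg encodes plasminogen, the precursor of plasmin. HFW mice had 589.7, 730.3, 652 and 509.9 CPM, against 440.0, 311, 370.0 and 613 in HF mice. NW mice had 404, 538, 931 and 609, against 437, 355, 478 and 901 in N mice. HF mouse 29 and N mouse 8 lay among the mice on WEPAK, and the log2 fold change was 0.51 (SE 0.30) in HFW against HF, 0.20 (SE 0.31) in NW against N and 0.36 (SE 0.22, adjusted p = 0.221 by edgeR) on average. Without N mouse 8 Plg passed on average (0.56, adjusted p = 0.0392 by edgeR). Serpinf2, alpha-2-antiplasmin, which inhibits plasmin, averaged 440.5 ± 75 CPM in HFW, 243 ± 104 in HF, 418 ± 129 in NW and 426 ± 150.0 in N (SD, n = 4 each). It had a log2 fold change of 0.87 (SE 0.32, adjusted p = 0.0732 by edgeR) in HFW against HF and of -0.01 (SE 0.32) in NW against N. Without HF mouse 29 it passed in HFW against HF (1.18, adjusted p = 0.0228), and without N mouse 8 on average (0.59, adjusted p = 0.0438). The interaction was 0.88 (SE 0.45, adjusted p = 0.997 by edgeR).

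The remaining coagulation genes did not pass in either extract contrast, and their log2 fold changes were at most 0.41 in size. F2, prothrombin, averaged 324 ± 81.9 CPM in HFW, 288 ± 54.6 in HF, 286 ± 85.6 in NW and 309 ± 95.2 in N (SD, n = 4 each), with log2 fold changes of 0.17 in HFW against HF and -0.13 in NW against N. F5, the cofactor of the prothrombin-cleaving complex, averaged 214 ± 104.9 CPM in HFW, 174 ± 43.2 in HF, 190.6 ± 90.5 in NW and 157 ± 51.0 in N, with 0.28 in HFW against HF and 0.21 in NW against N. Kng1, the precursor of bradykinin, averaged 138 ± 14.2 CPM in HFW, 102 ± 20.9 in HF, 171 ± 104 in NW and 196 ± 42.9 in N, with 0.41 in HFW against HF and -0.15 in NW against N.

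Among the complement genes none passed, and 6 of the 7 tested had a negative mean extract effect, against 511 of all 1046 genes. The complement median was -0.31 against 0.03 over all genes. Of the 10 tested coagulation genes 8 were positive, with a median of 0.09. Cfi encodes factor I, the protease that cuts the active fragments of C3 and C4. It had 1389, 1046, 1199 and 849.9 CPM in HFW mice, against 1284, 1702, 944 and 1082 in HF mice. NW mice had 905, 1190.0, 804 and 530.1, against 1059, 1540.0, 1629 and 1426 in N mice. Of the NW mice 3 lay below every N mouse, while NW mouse 12 lay above N mouse 4. Cfi had a log2 fold change of -0.17 (SE 0.27) in HFW against HF, -0.71 (SE 0.27, adjusted p = 0.0832 by edgeR) in NW against N and -0.44 (SE 0.19, adjusted p = 0.079) on average. The average passed when libraries were scaled by their totals (-0.50, adjusted p = 0.0496), without HFW mouse 34 and HF mouse 28 (-0.53, adjusted p = 0.039), without N mice 4 and 8 (-0.55, adjusted p = 0.0479), without N mouse 4 alone (-0.50, adjusted p = 0.0495) and with NW mouse 12 left out (-0.55, adjusted p = 0.0377).

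C4bp encodes the C4b-binding protein, a cofactor of factor I. HFW mice had 170.4, 197, 126 and 191 CPM, against 321, 311, 139 and 201 in HF mice. NW mice had 231, 86.4, 148 and 78.5, against 269, 162, 149.5 and 93.8 in N mice. The groups overlapped on each diet, and the mean extract effect was -0.43 (SE 0.28, adjusted p = 0.254 by edgeR), with -0.48 (SE 0.36) in HFW against HF and -0.37 (SE 0.42) in NW against N.

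Hc encodes C5, from which the membrane attack complex is started. HFW mice had 157, 178, 126 and 255 CPM, against 333, 282, 222 and 287 in HF mice. NW mice had 308, 230.3, 317 and 294, against 319, 291, 299 and 244 in N mice. On the high-fat diet 3 HFW mice lay below every HF mouse, and on the normal diet the groups covered the same range. The log2 fold change was -0.60 (SE 0.29, adjusted p = 0.177 by edgeR) in HFW against HF and -0.03 (SE 0.29) in NW against N.

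The short Masp2 transcript, the member with most tags, had 2424, 3573, 2061 and 1795 CPM in HFW mice, against 2462, 3080, 1804 and 3275 in HF mice. NW mice had 2752, 2726, 2411 and 2611, against 2168, 2994, 3722 and 3546 in N mice. The mice of both diets overlapped, and the log2 fold changes were -0.11 (SE 0.26) in HFW against HF and -0.24 (SE 0.26) in NW against N. C8a, the alpha chain of the pore protein C8, was the complement gene with a positive mean effect (0.28, SE 0.20, adjusted p = 0.319 by edgeR). It had 577, 316, 484 and 712 CPM in HFW mice, against 476, 339, 610.5 and 287 in HF mice. NW mice had 635, 672, 508 and 864, against 487, 592, 688 and 488 in N mice, and the groups overlapped on both diets. The log2 fold change of C8a was 0.32 (SE 0.29) in HFW against HF and 0.24 (SE 0.29) in NW against N.

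Cfb and Serping1 had between 2 and 20 tags a library. Cfb, factor B of the alternative pathway, averaged 144 ± 58.3 CPM in HFW, 118 ± 35.2 in HF, 108 ± 46.1 in NW and 148 ± 15.1 in N (SD, n = 4 each), with log2 fold changes of 0.31 (SE 0.37) in HFW against HF and -0.46 (SE 0.41) in NW against N. Serping1, the C1 inhibitor, averaged 93.4 ± 73.5 CPM in HFW, 159 ± 60.5 in HF, 116 ± 57.0 in NW and 125 ± 57.0 in N, with -0.62 (SE 0.45) in HFW against HF and -0.15 (SE 0.50) in NW against N.

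The high-fat diet was compared with the normal diet first without the extract, in a contrast that shares the HF mice with HFW against HF and the N mice with NW against N. None of the 22 members passed in HF against N, where 0.0956% of all genes did, that is 1 gene. At an unadjusted p below 0.05 there were 2 members (9.09%), Kng1 and Serpinf2, against 103 genes or 9.85% of all, and the counts of members were also 0 with the DESeq2 Wald test and limma-voom. All 180 Kng1 tags stood in the row of a transcript of 1827 bases. Its expected tag lies in an intron of another form of 1995 bases, which had 0 tags, so the values do not follow every form. Kng1, whose last tag is also that of Kng2, had 83.2, 127, 111 and 86.2 CPM in HF mice, against 218, 172, 149.5 and 244 in N mice. It was the 1 member (4.55%) whose groups did not overlap, with 3.06% over all genes, and its log2 fold change was -0.89 (SE 0.37, adjusted p = 0.454 by edgeR). Serpinf2 had -0.81 (SE 0.32, adjusted p = 0.443 by edgeR) with 4 of 4 HF mice below the N mean.

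For the other members the contrast of HF against N was -0.48 (SE 0.31) for Itih3, -0.27 (SE 0.33) for Itih2, -0.08 (SE 0.28) for Itih1, -0.02 (SE 0.29) for Itih4 and -0.02 (SE 0.33) for Hpx. In the coagulation group it was -0.51 (SE 0.32) for Fgb, -0.45 (SE 0.29) for Fgg, -0.31 for Plg, -0.07 for F2, 0.02 for F12, 0.06 for Serpinc1, 0.12 for F5 and 0.23 for Fga. Fgb and Fgg were thus lower in 4 of 4 HF mice than the N mean without passing. Fga, of the same locus but counted through 1 transcript form only, had 2 of 4 HF mice above the N mean. The share of all genes with 4 of 4 mice below that mean was not counted. Complement genes had values between -0.41 for C8a and 0.52 for C4bp, with -0.31 for Cfb, -0.23 for Masp2, -0.17 for Cfi, -0.04 for Hc and 0.34 for Serping1. The members' median was -0.12 against -0.02 over all genes.

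With the extract, in HFW against NW, 0 of 22 members passed and 0% of all genes did. At an unadjusted p below 0.05 there were 2 members (9.09%), Hpx and Itih4, against 126 genes or 12% of all, and Itih4 had 0.68 (SE 0.30, adjusted p = 0.361 by edgeR). The test of the difference between the extract's effects on the diets likewise gave 0 of 22 members and 0% of all genes, with 1 member (4.55%), Hpx, against 26 genes or 2.49% of all, at an unadjusted p below 0.05. The counts of members were 0 in both by the DESeq2 Wald test and limma-voom too.

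Summed over all their members, tested or not, complement genes had 5098, 5606, 4205 and 4164 CPM in HFW mice, against 5280, 5997, 4014 and 5458 in HF mice. Their sum was 5177, 5135, 4526 and 4673 in NW mice, against 4520, 5870, 6951 and 6229 in N mice. The groups overlapped on both diets, and the log2 ratio of the means with the extract over those without, averaged over diets, was -0.20. Coagulation genes averaged 4642 ± 344 in HFW, 4703 ± 869 in HF, 4802 ± 414 in NW and 5206 ± 886 in N (SD, n = 4 each), with a ratio of -0.07. Without Serpinc1 that ratio was 0.21.

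Acute-phase genes summed to 4954, 2625, 3680 and 2635 CPM in HFW mice, against 2200.0, 1999, 2682 and 2432 in HF mice, and averaged 2527 ± 410 in NW against 2514 ± 498 in N (SD, n = 4 each). HFW mice 34 and 38 stood above every other mouse of the study, and HFW mice 36 and 40 lay just below HF mouse 28. The log2 ratio was 0.58 on the high-fat diet and 0.01 on the normal diet, 0.29 on average and 0.18 without HFW mouse 34. No test is given for these sums, since the members were chosen with results known.

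**Figure D4:**
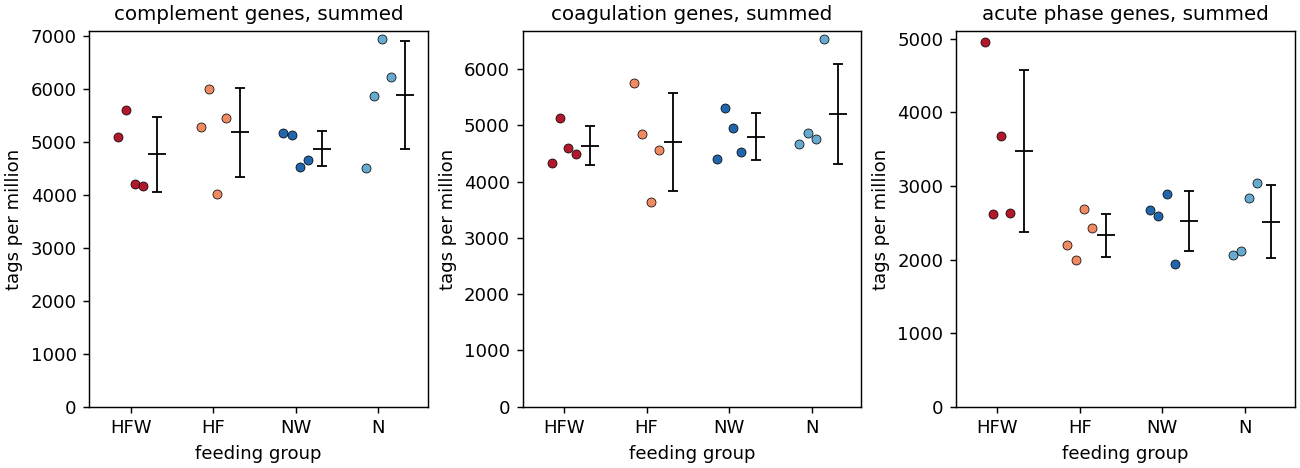
Summed levels in CPM of all complement, coagulation and acute-phase genes in each mouse (dots), with the group mean and SD (n = 4). HFW mice 34 (4954) and 38 (3680) are the highest for the acute phase, and N mouse 8 (6529) for coagulation.

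The genes below the expression filter include the strongest acute-phase reactants of the mouse, and for these tags were few. Saa1, an apolipoprotein of inflammation, had 11, 1, 1 and 1 tags in HFW mice, against 1, 3, 3 and 2 in HF mice. It had 0 tags in all NW mice, against 1, 1, 2 and 1 in N mice. Saa2, its close copy, had 16, 2, 3 and 4 tags in HFW mice, against 0, 1, 3 and 2 in HF mice, and 1, 1, 0 and 1 in NW mice, against 0 in all N mice.

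HFW mouse 34 therefore held 11 of the 14 Saa1 tags and 16 of the 25 Saa2 tags of its group. Over the group's libraries Saa2 stood at 82.5 CPM of raw totals (exact Poisson interval 53.4 to 121.8) in HFW, against 12.6 (4.63 to 27.5) in HF. Without mouse 34 it was 41.4 (18.9 to 78.6) in HFW. In NW it was 10.1 (2.09 to 29.5), and in N it was at 0 of 303852 tags (0 to 12.1), where 3 tags would be 9.87 CPM. The intervals are exact Poisson ones with 95% coverage for counting error only and not for differences between mice. They also take the division of shared tags between Saa1 and Saa2 as it stands, and so does the fit below. In N 5 tags stood under Saa1, and in NW 3 stood under Saa2 and 0 under Saa1, so neither gene can be called absent from these groups. In a fit without the expression filter, over 10171 genes, Saa2 had 2.43 (SE 0.72, adjusted p = 0.0612 by edgeR) in HFW against HF, and 0 of the 20 genes passed in any of the 6 contrasts.

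Some other genes, picked after their values were seen, were also high in HFW mouse 34. It had the highest Hpx level (2451 CPM) and 4 of the 6 Orm1 tags of HFW, though NW mouse 15 had a higher Orm1 level (63.5 CPM) than mouse 34 (52.4). Among genes outside the 42, Orm2 had 7 tags in it and 0 in the other HFW mice, Fgl1, a fibrinogen-like hepatokine, had 35 against 2 to 7 in those mice, and Mt2, a metallothionein, had 31 against 2 to 6, with 15 in NW mouse 15. Other acute-phase genes were not high in mouse 34. Hamp, the iron hormone hepcidin, had 157 CPM in it, against 1275 in HFW mouse 40, and Cp had 616, against 829, 778 and 584 in the other HFW mice. Hp had 6 tags in it, against 1, 8 and 9. The same library was high in collagen tags, with 58 of Col1a1 and 228 of Col3a1, and HF mouse 28 was another, with 51 and 297. In CPM these were 760 and 2988 in HFW mouse 34 and 472 and 2747 in HF mouse 28. HFW mouse 38, a smaller library, was also high, at 336 for Col1a1 and 1998 for Col3a1, though not for Col1a2 (147). The neutrophil and monocyte markers S100a8, S100a9, Retnlg, Mpo, Elane and Ly6c2 had 0 tags in every library, and that list summed to 0 in all HFW mice. The part of the collagen-rich tissue in these values was not tested. Without HFW mouse 34 and HF mouse 28, but with HFW mouse 38 kept, Itih3 and Serpinc1 still passed for the mean extract effect.

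Hp, haptoglobin, which binds free haemoglobin, was the most counted gene below the filter. It had 6, 1, 8 and 9 tags in HFW mice, against 6, 9, 7 and 3 in HF mice. NW mice had 6, 14, 21 and 3 tags, against 0, 4, 6 and 7 in N mice. NW mice 12 and 15 had the most tags of all, and the groups overlapped. In CPM of raw totals NW stood at 148 (exact Poisson interval 107.7 to 199) and N at 56.0 (32.6 to 89.6). Without mouse 15 NW stood at 96.2 (61.0 to 144), an interval that overlaps that of N. With all mice the fit without a filter gave 1.45 (SE 0.51, adjusted p = 0.25 by edgeR) in NW against N.

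**Figure D5:**
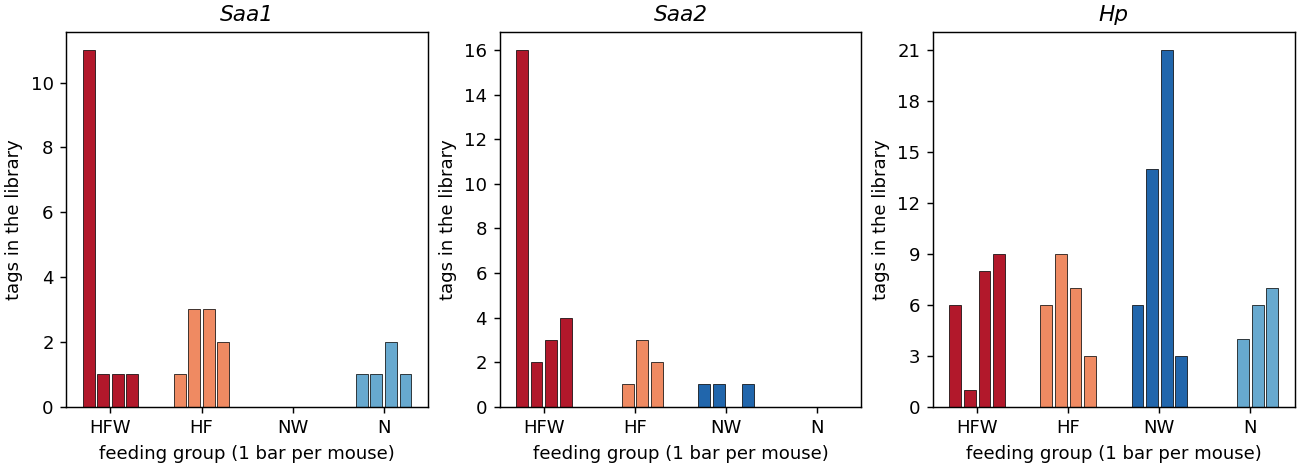
Tags of Saa1, Saa2 and Hp in each library, 1 bar per mouse in the order of mouse numbers; a missing bar is 0 tags. The first HFW bar is mouse 34, with 11 Saa1 and 16 Saa2 tags, and the highest Hp bar is NW mouse 15 with 21.

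The other acute-phase genes below the filter were Saa4 with 22 tags in 11 libraries, Orm1, orosomucoid, with 16 in 9 and Apcs, serum amyloid P, with 4 in 3. In the coagulation group F9 had 53 tags in 15 libraries, F10 had 25 in 12, F7 had 10 in 7 and F11 had 3 in 3, all clotting proteases. The anticoagulant protease gene Proc had 14 tags in 10 libraries, F13b, a subunit of the fibrin cross-linking factor, had 3 in 3, and the thrombin inhibitor Serpind1 had 4 in 1. In the complement group C8g had 18 tags in 10 libraries, C6 had 17 in 11, Masp1 had 14 in 10, C8b had 7 in 5 and C4b had 5 in 4. Of these 20 genes F9 was nearest to the others in depth after Hp, at 39.6 CPM in HFW, 33.6 in HF, 50.5 in NW and 32.9 in N. At 1 to 53 tags over 16 libraries, no difference passed for these genes in the fit without a filter.

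Genes of the same pathways outside the 42 were read from lists set for comparison, and 31.3% of all tested genes passed for the mean extract effect. Of 5 tested complement genes 1 passed, Clu, clusterin (0.55, SE 0.21, adjusted p = 0.0396 by edgeR). Of 4 tested coagulation genes 1 was higher and 1 lower, namely Pzp, an alpha-macroglobulin (0.65, SE 0.17, adjusted p = 0.0051), and Hgfac, the activator of hepatocyte growth factor (-0.94, SE 0.25, adjusted p = 0.00556). Of 5 tested acute-phase genes 2 were higher, Cp, ceruloplasmin (0.81, SE 0.24, adjusted p = 0.00987), and Ambp (0.73, SE 0.21, adjusted p = 0.00816), all by edgeR.

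Ambp encodes the precursor of bikunin, the partner of the Itih heavy chains. It had 655, 513, 1051 and 1041 CPM in HFW mice, against 511, 409.7, 426 and 517 in HF mice. NW mice had 1270.0, 864, 888 and 942, against 319, 679, 598 and 938 in N mice. All mice on WEPAK were above the mean of their diet's mice without it, as for Itih3 and Pzp. HFW mouse 36 lay below HF mouse 29. The other heavy chain genes Itih1, Itih2 and Itih4 had mean effects of -0.47, -0.08 and 0.07.

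Of 6 tested genes that control the acute phase 2 were lower with the extract, on average and in HFW against HF, Il6st among them. Over all tested genes 16.1% were lower on average, and 9.85% passed in HFW against HF in either direction. Il6st, the signalling chain of the interleukin 6 receptor, had 446, 237, 442 and 520.5 CPM in HFW mice, against 1035, 1144, 722 and 603 in HF mice. Every HFW mouse was below every HF mouse, in a contrast where 15.7% of all tested genes did not overlap. The log2 fold change of Il6st was -1.07 (SE 0.32, adjusted p = 0.0289 by edgeR), with -0.90 (SE 0.23, adjusted p = 0.00408) on average. Il6ra, for the same receptor, had -0.01 (SE 0.25) in HFW against HF and 0.06 (SE 0.18) on average. The mean effects of Tnfrsf1a (0.40), Nfkb1 (0.18) and Hnf4a (0.38) were positive, and none of these genes passed with all mice. Without HF mouse 28 Tnfrsf1a passed on average (0.57, adjusted p = 0.0112 by edgeR). In HFW against HF, Pzp (0.76, adjusted p = 0.042) and Cp (1.22, adjusted p = 0.018) were also called by edgeR. Socs3, a feedback inhibitor of this signal, had 0 tags in all libraries.

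Leaving out 1 mouse ended some of these calls by edgeR. In HFW against HF without HF mouse 25, Il6st had -0.91 (adjusted p = 0.132), Pzp 0.68 (adjusted p = 0.15) and Cp 1.24 (adjusted p = 0.0643). That contrast was also lost without HF mouse 23 or HFW mouse 38 for these 3 genes, without HFW mouse 36 for Il6st and Pzp, and for Pzp without any other mouse but HF 29, N 4 and N 8. Clu was lost on average without HFW mouse 34 or 38, HF mouse 23, 25 or 29, NW mouse 11 or 15, or N mouse 4, 5 or 7, with adjusted p up to 0.0931. Other settings ended some calls too. Pzp was lost in HFW against HF with DESeq2 size factors (0.72, adjusted p = 0.0522), with library totals (0.70, adjusted p = 0.056), with at least 10 tags in each of 8 libraries (0.73, adjusted p = 0.0505), without HFW mouse 34 and HF mouse 28 (0.72, adjusted p = 0.0763) and with no filter (0.52, adjusted p = 0.697). Cp was lost there with no filter (0.98, adjusted p = 0.123), and Clu was lost on average with library totals (0.50, adjusted p = 0.0551), all by edgeR.

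For the markers of other cell types, 0 of 2 tested Kupffer cell genes, 0 of 1 endothelial gene and 0 of 4 stellate cell genes passed in any contrast with all mice. Without HF mouse 28, one of the libraries high in collagen tags, the stellate cell genes Col1a1 (2.22, adjusted p = 0.038) and Col3a1 (1.75, adjusted p = 0.0258) were higher in HFW against HF, and Col3a1 on average (0.95, adjusted p = 0.041), by edgeR. That fit kept HFW mouse 34, also high in collagen tags, and neither gene was called when both mice were left out. With all mice, the marker sums ran from 572 to 1442 CPM in HFW and 642 to 1236 in HF for Kupffer cells, and from 967 to 4613 in HFW and 618 to 4505 in HF for stellate cells. Of the 7 tested hepatocyte markers 1 passed, Ttr, transthyretin, whose plasma level falls in inflammation (0.85, SE 0.26, adjusted p = 0.0141 by edgeR, mean extract effect). Over all tested genes 31.3% passed for that effect. The part of these cell types in the results was not tested.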

How the data were processed

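Per the labels' protocols, cDNA made with a biotinylated oligo-dT primer was cut with NlaIII, captured on beads and cut with EcoP15I to release tags, which were indexed and amplified by PCR. The authors deposited raw tag counts per RefSeq transcript, with 1 column for each mouse. How tags were matched, to which RefSeq release, is not given in the sources used here, and no molecular identifiers are named.

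Rows without a symbol (416, holding 0.0729% of tags) were left out, 41 symbols that had become dates were replaced by MGI identifiers, and counts were summed per symbol. Counts of all 16 mice were fitted in R 4.3.3 with edgeR 4.0.16 (TMM scaling, filterByExpr with a minimum count of 10, robust quasi-likelihood F test, Benjamini-Hochberg adjustment over 1046 genes, threshold 0.05). Approximate standard errors were had from the log2 fold change and the F statistic. The fit was tested on simulated data. Library pairs of a group differed beyond sampling noise (chi-square per degree of freedom 2.24 to 9.64). Alternatives were DESeq2 1.42.0 size factors and its Wald test, library totals, limma 3.58.1 voom, other filters, the compared groups alone, RefSeq rows separately and leaving out each mouse. Leaving out N mice 4 and 8, or HFW mouse 34 with HF mouse 28, was added after seeing the data. The members and lists were chosen with earlier results of these data known. Every tested gene was named; values per mouse were given for called genes and, in each gene group, for the 3 genes with the smallest p of the mean extract effect and the 3 with most tags. Values per mouse of other genes were chosen after they were seen. Some genes of the comparison lists that meet this rule are not reported here.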

Additional observations from a re-analysis of the deposited data

Results flagged for a closer look

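In 3 of 112 sets of 4 mice checked, 1 mouse stood apart from the other 3 of its group by Dixon's criterion, which chance alone meets in about 1 set in 20. Saa1 in HFW mouse 34 was at 144 CPM, against 10.6 to 21.03 in the other HFW mice. Saa2 in HFW mouse 34 was at 209.7 CPM, against 39.5 to 63.1 in the others. The summed coagulation genes of N mouse 8 stood at 6529 CPM, against 4671 to 4868 in the other N mice.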

How the results depend on the processing

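Itih3 (0.72 to 0.97) and Serpinc1 (-0.77 to -0.55) kept their calls for the mean extract effect in all 25 alternatives, and the counts of members in HF against N, in HFW against NW and in the interaction were 0 in every alternative run. In HFW against HF the count was 1 (Itih3, adjusted p = 0.0402 by edgeR) in the fit of the compared groups alone and 1 (Itih3) without N mice 4 and 8. Leaving out 1 mouse at a time gave counts from 0 to 1 there (Hpx without HFW mouse 40, Serpinf2 without HF mouse 29, Itih3 without N mouse 4 or N mouse 8). In NW against N the count was 1 (Itih3) without HFW mouse 34 and HF mouse 28, and leaving out 1 mouse gave 0 to 2 (F12 and Itih3 without NW mouse 20, Itih3 without N mouse 7 or N mouse 8). For the mean effect leaving out 1 mouse gave 2 to 4 (with Plg and Serpinf2 added without N mouse 8). The cause was not tested. The summed coagulation genes, at -0.07, gave 0.21 without Serpinc1 and between -0.12 and 0.00 when 1 mouse was left out. Without the expression filter the mean effects of the listed genes Ambp, Clu, Cp, Pzp and Ttr did not pass (adjusted p = 0.062 to 0.385 by edgeR over 10171 genes). The fit of the compared groups alone was not run for the mean effect and the interaction, which use all groups. No paired analysis was possible because the groups share no replicate number. At these depths 20 of the 42 genes were not tested. In the main fit the p-values set each difference against a spread between mice that was estimated from all 16 mice, 4 a group.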
